A study of Mus musculus with 24 samples.

Results

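The forkhead (Fox) genes encode transcription factors that share the winged-helix DNA-binding domain, and 36 of them were examined here among 21938 protein-coding genes. They were chosen by name. For each, all histone ChIP-seq peaks within the gene body and 20 kb on either side (the locus, on the mm10 genome build) were counted, and the base pairs (bp) they covered were summed. Chromatin immunoprecipitation and sequencing had been applied to H3K27ac, which marks active enhancers and promoters, to H3K4me2, found at promoters and enhancers of both active and poised genes, and to H3K27me3, which is laid down by Polycomb complexes at repressed genes. Forelimb buds were taken at E10.5 (32 to 35 somites) from Swiss Webster embryos that were WT or homozygous for a Shh null allele (Shh-/-). The pools called WT also held heterozygous littermates. Buds were pooled across litters, with 400000 cells per immunoprecipitation, so every list averages over mesenchyme, ectoderm and the other cells of the bud, and fewer cells with a mark cannot be told apart from less mark per cell. The second system was NIH3T3, a mouse embryonic fibroblast line that responds to Hedgehog, which was kept for 48 h in low serum with 400 nM purmorphamine, a small-molecule agonist of the pathway, or with the solvent DMSO (control), and which used 1000000 cells per immunoprecipitation and another H3K27ac antibody than the limb.

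There were 24 libraries, 14 from immunoprecipitations and 10 from input chromatin, and they gave 7 peak lists, each called by the authors on 2 pooled replicates. With 1 list per condition there was no replicate to set an error, no test could be run, and the peak lists do not give the depth of a library. Differences are therefore given as covered bp in each list, beside the same value for all protein-coding loci. The lists held 49679 (WT) and 43916 (Shh-/-) peaks for limb H3K27ac, 36585 and 38468 for limb H3K4me2, 20830 for H3K27me3 (Shh-/- limb buds alone) and 87779 (purmorphamine) and 90989 (control) for NIH3T3 H3K27ac. The H3K27me3 list was the least stringent, as 47.2% of its peaks had a false discovery rate (FDR) under 0.05. The labels were checked at transcription starts, with a window of 1 kb on either side. All 5 limb mesenchyme markers had H3K27ac there in both genotypes, all 5 fibroblast markers had it in both NIH3T3 lists, and none of 3 blood markers had it in any list. None of 4 ectoderm markers had H3K27ac at the start in limb buds, while all 4 had H3K4me2 and H3K27me3. Of 3 muscle precursor markers, 0 had H3K27ac at the start in WT and 2 (Pax3 and Lbx1) in Shh-/- limb buds. Of 4 endothelial markers, 1 (Cdh5) had it in WT and 0 in Shh-/- limb buds. The Hedgehog targets Gli1 and Ptch1 had H3K27ac at the start in WT and not in Shh-/- limb buds, while Hhip, a further target, had it in neither.

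Forkhead factors are best known as regulators of cell identity. Several mesenchymal members, above all Foxf1, Foxf2 and Foxl1, are classical targets of Hedgehog signals that pass from the gut or lung epithelium to the mesenchyme around it. Genes of this kind are also typical Polycomb targets, which carry broad H3K27me3 over their CpG-rich promoters in cells where they are silent, often together with H3K4 methylation, a combination called bivalent. For the account below the members were sorted by where they are generally known to act. The list of 7 mesenchymal members comprised Foxc1, Foxc2, Foxd1, Foxd2, Foxf1, Foxf2 and Foxl1. There were 17 regulators of other tissues or single lineages and 12 widely expressed members. These assignments came from general knowledge and were not checked against the literature.

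In the limb the marks parted mainly the widely expressed members from the others, as the heat map of covered bases shows. In Shh-/- limb buds, the only genotype in which it was mapped, H3K27me3 lay within 1 kb of the start of all 7 mesenchymal members. H3K4me2 was at 6 of these starts, all but that of Foxl1, and there was almost no H3K27ac, in either genotype. In NIH3T3 cells all 7 had H3K27ac nearby, and at Foxd1, Foxc1 and the lens gene Foxe3 the acetylated bases were at least 2-fold more with purmorphamine. The 17 members of other tissues were close to the mesenchymal ones at their limb starts, with H3K27me3 at 14 and H3K27ac at 1 in each genotype. They had H3K4me2 at fewer starts (7 in Shh-/-), and 8 of their loci held a WT H3K27ac peak. The widely expressed members were acetylated in the limb at all 12 loci and had little H3K27me3.

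**Figure D1:**
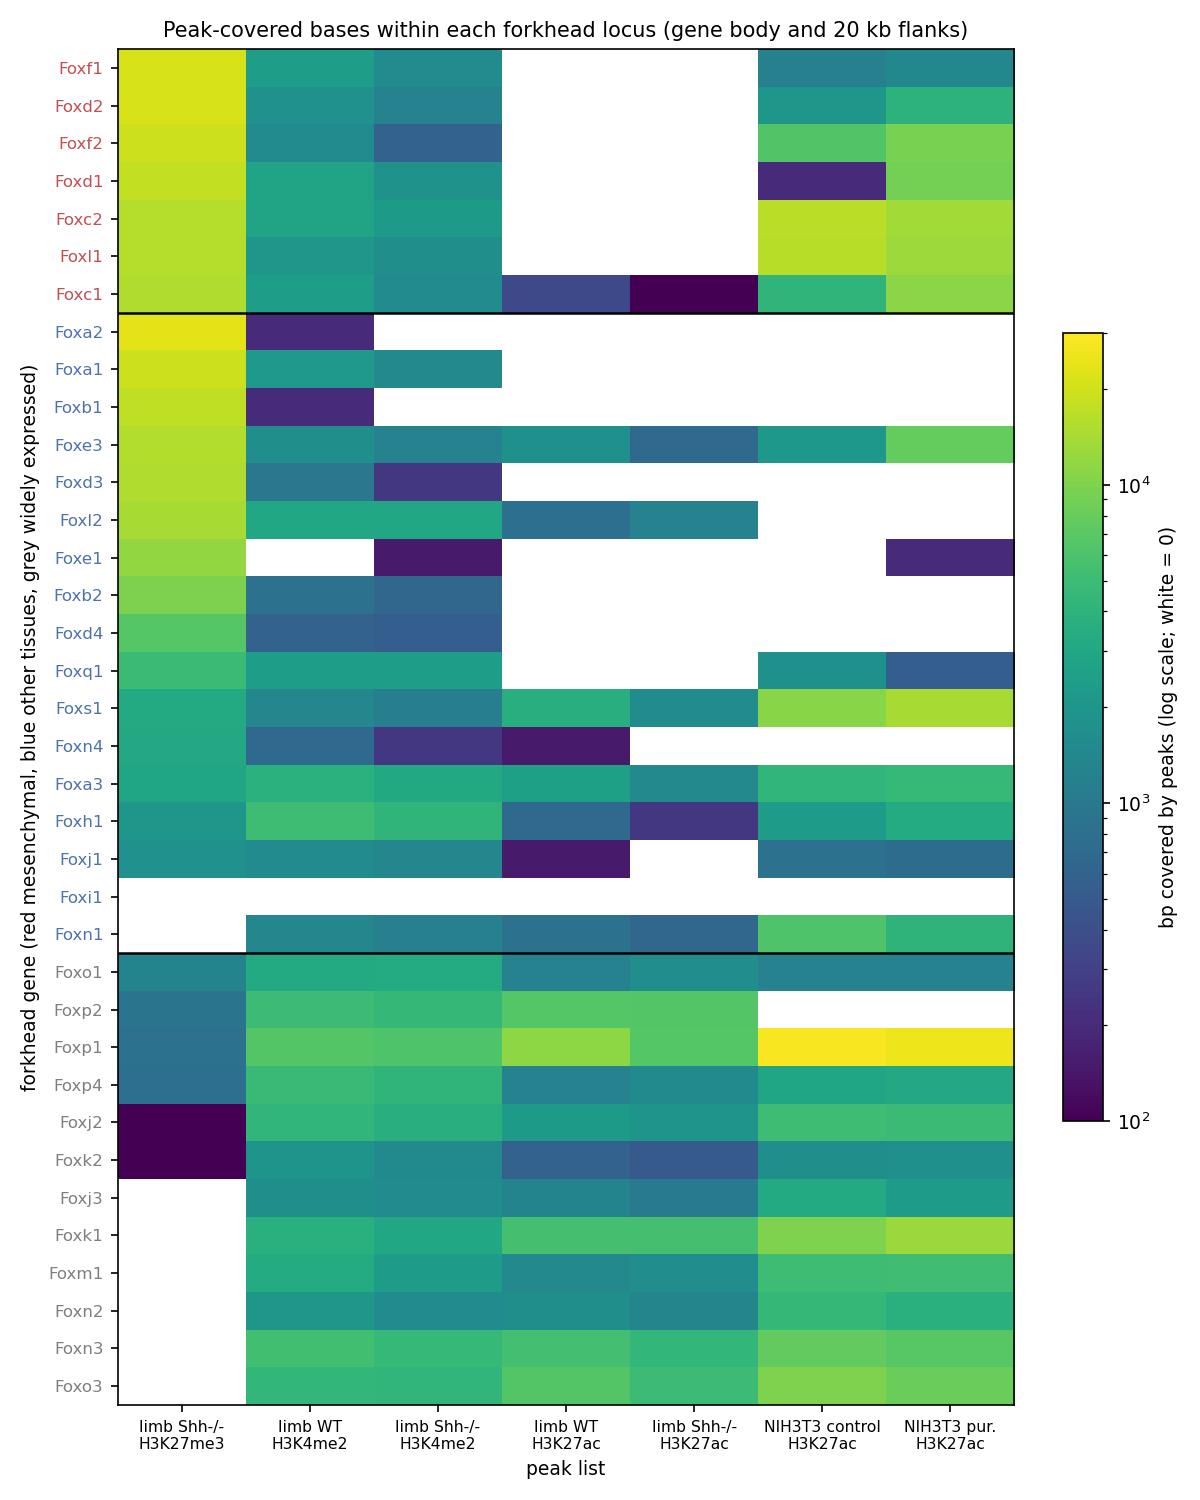
Base pairs covered by peaks in the locus of each of the 36 forkhead genes (rows, grouped by role and ordered by H3K27me3) in the 7 peak lists (columns), on a log color scale with white for 0. The 7 mesenchymal loci had 15150 to 21450 bp of H3K27me3, and limb H3K27ac was found at 1 of them.

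H3K27me3 in Shh-/- limb buds was found in 28 of 36 forkhead loci, against 36.9% of all protein-coding loci. At the transcription start it was present in 22 of 36, against 11.5% of all genes. All 7 mesenchymal members and 14 of 17 members of other tissues had it at the start, and among the 12 widely expressed members the start of Foxo1, an effector of insulin signaling, was the single case. Ranked by covered bp among the 21938 genes, 13 members stood in the top 1% and 17 in the top 5%. The 13 were not separate domains, as Foxc2 and Foxl1 held the same 9 peaks, and Foxd2 and Foxe3 shared peaks. Of the 15 marked members of other tissues, the covered length ran from 1800 bp at Foxj1, a regulator of motile cilia, to 23900 bp at Foxa2, a regulator of endoderm and floor plate. The 6 marked widely expressed loci had 100 to 1300 bp. The 8 loci with no H3K27me3 peak were those of Foxi1, Foxj3, Foxk1, Foxm1, Foxn1, Foxn2, Foxn3 and Foxo3.

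The most H3K27me3 was found at Foxa2 (23900 bp in 19 peaks), Foxf1 (21450 bp in 5 peaks), Foxd2 (21200 bp in 9 peaks), Foxa1 (19400 bp in 9 peaks) and Foxf2 (19300 bp in 8 peaks). Foxa1, like Foxa2, is a pioneer factor of endoderm. Neither had an H3K27ac peak in limb buds or NIH3T3 cells, while H3K4me2 covered 2150 bp (WT) and 1450 bp (Shh-/-) at Foxa1 and 200 and 0 bp at Foxa2. The widest single domain was at Foxf1, where 1 peak of 20100 bp (chr8:121072000-121092099) spanned the whole gene, which lies at chr8:121084386-121088144. The main domain over Foxf2 was 13150 bp wide and that over Foxd1 9900 bp. Foxc1 held the peak with the best rank among the mesenchymal members, 12th of 20830 by the authors' score, with a largest log2 ratio of ChIP to input of 5.43. The remaining mesenchymal totals were 17850 bp at Foxd1, 15900 bp each at Foxc2 and Foxl1, whose windows overlap, and 15150 bp at Foxc1.

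H3K4me2 and H3K27me3 both lay within 1 kb of the start of 14 of 36 members in Shh-/- limb buds, against 9.78% of all genes. Among starts that had H3K27me3, both marks were at 14 of 22 forkhead starts and at 2145 of 2528 starts of all genes. H3K4me2 was thus not more frequent at marked forkhead starts than at marked starts in general. Of the mesenchymal members 6 of 7 were in this state, all but Foxl1, which had H3K27me3 alone at its start. The Foxc1 start itself lay under an H3K4me2 peak and 167 bp from the nearest H3K27me3 peak. Among members of other tissues 7 of 17 had both marks: Foxa1, Foxb2, Foxe1, Foxe3, Foxj1, Foxl2 and Foxn4. Foxa2, Foxd3 and Foxb1, with 15100 to 23900 bp of H3K27me3, had no H3K4me2 at the start in Shh-/- limb buds. At Foxd3 a peak lay just past the window, 1151 bp from the start. In WT limb buds Foxd3 and Foxb1 had H3K4me2 within 1 kb of the start, and Foxa2 did not. Whether both marks were on the same chromatin or in different cells of the bud was not tested.

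**Figure D2:**
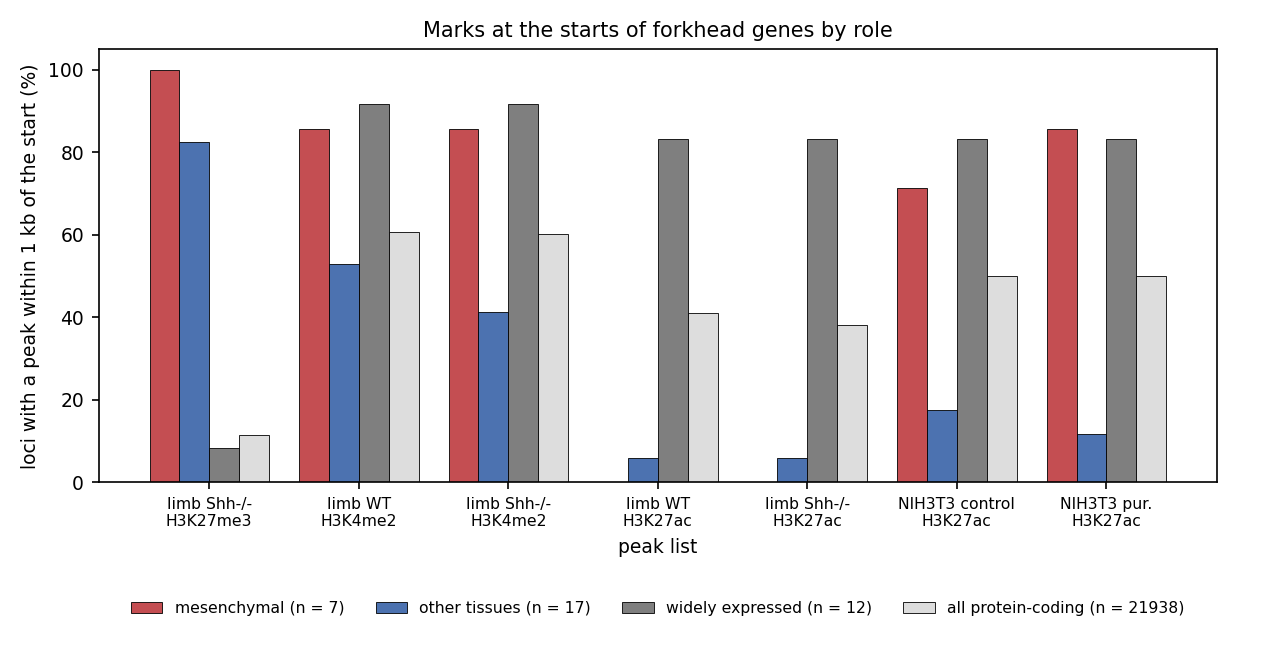
Percent of loci with a peak within 1 kb of the transcription start, in each of the 7 lists, for the 3 roles and for all 21938 protein-coding genes. The mesenchymal members stand at 100% for H3K27me3, 85.7% for H3K4me2 in both genotypes and 0 for limb H3K27ac, while the widely expressed members stand at 83.3% for limb H3K27ac.

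RefSeq promoter sequences (assembly GRCm38.p6, 250 bases before to 50 bases after the start) were matched for 23 of 36 members, and for 20 of them the RefSeq start lay within 1000 bp of the annotated start used here. Foxb1, Foxc2, Foxe1, Foxf1, Foxh1, Foxj1, Foxk1, Foxl1, Foxm1, Foxn2, Foxp2, Foxq1 and Foxs1 were without an entry. The 250 bases upstream of 4 starts are printed 5′ to 3′ on the gene's strand with every CG in capitals, to show how the CpG content differed between a mesenchymal member with a broad Polycomb domain (Foxf2), the member that changed most in NIH3T3 cells (Foxd1), a widely expressed member with H3K27ac at its start in all 4 H3K27ac lists (Foxk2), and the member with no peak in any list (Foxi1).
Foxf2 (chr13:31625566-31625815, plus strand): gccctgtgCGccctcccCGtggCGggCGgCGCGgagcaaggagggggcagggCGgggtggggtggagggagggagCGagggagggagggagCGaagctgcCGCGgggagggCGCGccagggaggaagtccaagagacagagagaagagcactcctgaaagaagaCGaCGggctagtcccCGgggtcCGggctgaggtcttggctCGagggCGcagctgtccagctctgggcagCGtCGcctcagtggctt
Foxd1 (chr13:98353995-98354244, plus strand): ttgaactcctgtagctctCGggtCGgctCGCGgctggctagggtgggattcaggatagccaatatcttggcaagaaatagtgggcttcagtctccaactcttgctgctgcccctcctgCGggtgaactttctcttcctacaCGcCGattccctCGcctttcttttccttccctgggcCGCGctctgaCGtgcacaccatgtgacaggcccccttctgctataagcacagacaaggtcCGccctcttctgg
Foxk2 (chr11:121259737-121259986, plus strand): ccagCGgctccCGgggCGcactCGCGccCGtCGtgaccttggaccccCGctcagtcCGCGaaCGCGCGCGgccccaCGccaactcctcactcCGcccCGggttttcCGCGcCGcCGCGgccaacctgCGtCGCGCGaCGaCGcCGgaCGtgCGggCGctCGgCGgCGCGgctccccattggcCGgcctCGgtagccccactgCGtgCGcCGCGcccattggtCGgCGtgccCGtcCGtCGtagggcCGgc
Foxi1 (chr11:34208090-34208339, minus strand): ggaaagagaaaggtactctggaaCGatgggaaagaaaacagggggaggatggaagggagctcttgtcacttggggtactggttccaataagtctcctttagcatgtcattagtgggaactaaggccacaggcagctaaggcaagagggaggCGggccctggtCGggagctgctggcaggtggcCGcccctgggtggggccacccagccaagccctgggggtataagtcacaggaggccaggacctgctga

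These stretches held 21 CG in Foxf2, 12 in Foxd1, 48 in Foxk2 and 4 in Foxi1. Over the whole windows of 300 bases, the 14 matched members with H3K27me3 at the start had a median of 23.5 CG (10 to 32) and the 6 without it a median of 34.0 (6 to 59). The median of all 14269 promoters matched in the same way was 16.0, and that of the 1658 with H3K27me3 at the start was 21.0. By role, the median was 26.5 in 4 mesenchymal members, 12.0 in 11 members of other tissues and 35.0 in 5 widely expressed members. The members without H3K27me3 lay at both ends of this range, with Foxi1, a regulator of the inner ear and of ion-transporting epithelia, at 6 and Foxk2 at 59.

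Limb H3K27ac was next compared between WT and Shh-/- buds, the question being whether any forkhead locus depended on Shh for its acetylation. In WT limb buds a peak lay in 21 of 36 forkhead loci, against 64.8% of all loci. It was found at 12 of 12 widely expressed members, 8 of 17 members of other tissues and 1 of 7 mesenchymal members. Of the 8, Foxa3, Foxh1, Foxl2, Foxn1 and Foxn4 had no WT peak nearest to their own start. Among the widely expressed members this held for Foxj3 and Foxm1, though a peak lay within 1 kb of the Foxm1 start. The mesenchymal member was Foxc1, which acts in somites, eye and skeletal mesenchyme. It had 1 peak of 350 bp in WT and 1 of 100 bp in Shh-/- limb buds. Their nearer edges lay 8567 and 8817 bp downstream of the start. Foxc2, Foxd1, Foxd2, Foxf1, Foxf2 and Foxl1 had 0 bp in both genotypes. Counted from the start, the nearest WT peak was 24377 bp away at Foxd2, 36543 bp at Foxd1, 42560 bp at Foxl1, 54329 bp at Foxc2, 84984 bp at Foxf2 and 86114 bp at Foxf1. No mesenchymal start was acetylated in the limb in either genotype.

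At 15 members, none of them mesenchymal, the H3K27ac peaks covered at least 1000 bp in 1 or both genotypes. Of these, 0 had at least 2-fold more covered bp (after adding 500 bp to each list) in WT, where 4.99% of 9125 comparable loci did, and 0 had at least 2-fold more in Shh-/-, where 0.373% did. The median log2 ratio of WT over Shh-/- was 0.22 for these members and 0.22 for all loci. Among the 9 of these members that had an H3K27me3 peak it was 0.20. Since 6 of 7 mesenchymal loci had 0 bp in both genotypes, no ratio of theirs could be read. Of the Hedgehog reference loci, Gli1 and Ptch1 moved further, with log2 ratios of 2.24 at Gli1 (2800 bp in WT and 200 bp in Shh-/-) and 1.57 at Ptch1 (12850 and 4000 bp), though only 0.05 at Hhip (1100 and 1050 bp).

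Foxs1 and Foxe3 lay just under the 2-fold line. Foxs1, known from pericytes and sensory neurons, had 7 WT peaks that covered 3550 bp and 1 Shh-/- peak of 1600 bp, a log2 ratio of 0.95. Both lists held the same main peak, centred 7609 bp downstream of the start and 2200 bp wide in WT, and the 6 further WT peaks were smaller. Within 1 Mb on either side of this locus, left out itself, the log2 ratio was -0.03. Foxe3, which is required for the lens, had 1750 bp in 5 WT peaks and 700 bp in 2 Shh-/- peaks, a log2 ratio of 0.91. Here the 1 Mb on either side moved alike, by 0.90. The Foxe3 window also held 15603 bp of H3K27me3 in 7 peaks, and H3K4me2 covered 1700 bp in WT and 1250 bp in Shh-/- limb buds. This window overlaps that of Foxd2, and only 3 of the 7 H3K27me3 peaks were nearest to the Foxe3 start, the widest of 4950 bp. In each genotype 1 H3K4me2 peak was nearest to the Foxe3 start, of 300 bp in WT and 150 bp in Shh-/-. The other H3K4me2 was nearest to the start of Foxd2.

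Among the widely expressed members, the largest difference was at Foxp1, with 11450 bp in 32 WT peaks and 6650 bp in 23 Shh-/- peaks (log2 ratio 0.74). Its gene body is long, so that many separate peaks were summed, and within 1 Mb on either side the ratio was 0.50. The ratios of the other widely expressed members ran from -0.30 at Foxo1 (1250 bp in WT and 1650 bp in Shh-/-) to 0.37 at Foxo3, a relative of Foxo1 in insulin signaling (6550 and 4950 bp). Foxk1, a regulator of metabolism and muscle progenitors, had 5550 bp in both genotypes, and Foxm1, a cell cycle regulator, had 1450 and 1650 bp. Of all 135 WT H3K27ac peaks at forkhead loci, 73 were WT-only (no overlap with a Shh-/- peak), or 54.1% (95% Wilson interval 45.7 to 62.3, counting error only), and the share among WT peaks at all protein-coding loci was 45.6%. Of 106 Shh-/- peaks, 35 were Shh-/- only, or 33.0% (24.8 to 42.4), against 34.4% at all loci.

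Of the 73 WT-only peaks at forkhead loci, 3 overlapped a NIH3T3 peak that was present only with purmorphamine, a share of 4.11%, against 2.81% of all 24073 WT-only peaks. Of these, 2 were at Foxs1, centred 11159 and 10709 bp downstream of its start, and 1 was at Foxe3, at chr4:114945050-114945249 upstream of the gene. At the Hedgehog reference loci the same count was 3 of 12.

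H3K4me2 in the limb was present at every mesenchymal locus in both genotypes and, after adding 500 bp to each list, differed less than 2-fold at every forkhead locus compared. At the mesenchymal members it covered 2800 bp in WT and 1850 bp in Shh-/- at Foxd1, 2400 and 1550 bp at Foxc1, 2445 and 1550 bp at Foxf1, and 1550 and 600 bp at Foxf2. At the remaining mesenchymal members the values were 2800 and 2250 bp at Foxc2, 1800 and 1250 bp at Foxd2 and 2060 and 1710 bp at Foxl1. All 7 were thus higher in WT, with log2 ratios from 0.21 to 0.90 and a median of 0.49. Higher values in WT were the general direction of these lists, found at 25 of 28 forkhead loci compared and at 10004 of all 14249 comparable loci, whose median was 0.13. Foxc2, Foxf1 and Foxl1 lie side by side on chromosome 8 with overlapping windows, so the 7 ratios are not independent. Within 1 Mb of the mesenchymal loci the H3K4me2 ratios were also above 0, from 0.14 around Foxd1 to 0.41 around Foxc1. At the mesenchymal loci 7 of 25 WT peaks and 1 of 20 Shh-/- peaks were without a counterpart in the other genotype. Of 28 members compared, 0 had at least 2-fold more in WT (0.4% of all loci) and 0 in Shh-/- (0.0281%). Of 134 WT peaks at forkhead loci 27.6% (20.7 to 35.7) were WT-only, against 23.0% at all loci, and of 136 Shh-/- peaks 20.6% (14.6 to 28.1) were Shh-/- only, against 19.5%.

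**Figure D3:**
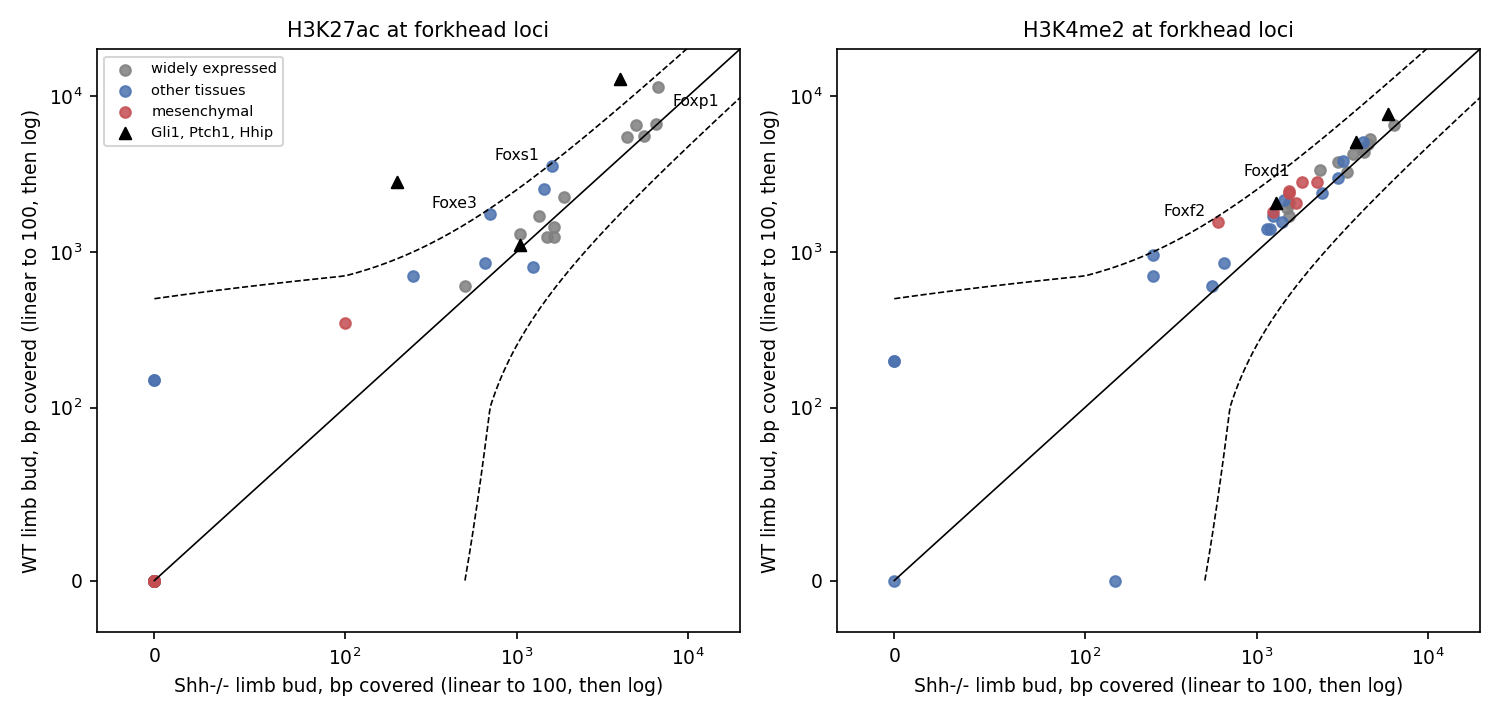
Covered bp in WT (vertical) against Shh-/- limb buds (horizontal) for H3K27ac (left) and H3K4me2 (right) at each forkhead locus, colored by role, with the 3 Hedgehog reference loci (Gli1, Ptch1, Hhip) as triangles. The solid line marks equal values and the dashed lines 2-fold after adding 500 bp, the axes are linear to 100 bp and logarithmic above, and loci with 0 bp in both lists overlie each other at the origin, which for H3K27ac includes 6 mesenchymal members.

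In NIH3T3 cells the comparison asked whether activating Hedgehog changed acetylation at the same loci. Control cells had H3K27ac in 25 of 36 forkhead loci, against 70.0% of all loci, among them 7 of 7 mesenchymal members, 11 of 12 widely expressed members and 7 of 17 members of other tissues. Foxp2 was the widely expressed member without a peak. Foxa3, Foxh1, Foxj3 and Foxq1 had no control peak nearest to their own start, though a Foxa3 peak lay within 1 kb of its start. At the transcription start, 5 of 7 mesenchymal members had H3K27ac in control cells and 6 of 7 with purmorphamine, against 50.0% of all starts in each list. The added start was that of Foxl1, through a peak of 250 bp ranked 76846 of 87779.

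Of the 24 members with at least 1000 bp in 1 of the conditions, 3 had at least 2-fold more covered bp with purmorphamine, against 3.12% of 13919 loci, and 1 had at least 2-fold more in control cells, against 4.66%. The largest change was at Foxd1, which is best known from stromal cells of the kidney. Foxd1 had 2 control peaks of 100 bp each and 14 peaks with purmorphamine, which covered 9200 bp in place of 200 bp, a log2 ratio of 3.79. The widest of these was 2350 bp, centred at -3818 bp from the start (negative values are upstream), and the next was 1800 bp, centred at -10893 bp. A further 8 peaks lay 15007 to 24532 bp downstream of the start. The start itself and the whole gene body carried no NIH3T3 peak, and of the 14 peaks 13 were absent from the control list.

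Foxc1 had 20 peaks and 11200 bp with purmorphamine and 4 peaks and 4200 bp in control cells, a log2 ratio of 1.32. The peak over the gene was in both lists, 3700 bp wide with purmorphamine and 3400 bp in control cells, and its rank was 45 of 87779 with purmorphamine and 5541 of 90989 in control cells. The 16 purmorphamine-only peaks at Foxc1 were 100 to 750 bp wide, with 10 of them between -17834 and -6859 bp from the start, 1 at -4184 bp and 5 downstream. In the better-ranked 50% of both lists the ratio at Foxc1 was 0.98, under 2-fold, so that 2 of the 3 calls were left, and without the flanks it was 0.28, and 0 at Foxd1 and Foxe3. Foxe3 had 15 peaks and 7814 bp with purmorphamine and 3 peaks and 2100 bp in control cells, a log2 ratio of 1.68. Of its 12 purmorphamine-only peaks, 11 lay between -19211 and -5886 bp from its start, on the side away from Foxd2.

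The remaining mesenchymal members changed less. Foxd2 had 4018 bp with purmorphamine and 2050 bp in control cells (log2 ratio 0.83), and Foxf2 had 9550 and 6400 bp (0.54). Foxf1 had 1445 and 1195 bp (0.20). Foxc2, a regulator of lymphatic and skeletal development, had 13700 and 16600 bp (-0.27), and Foxl1, a marker of the mesenchyme beneath gut epithelium, had 13060 and 16310 bp (-0.31). The windows of Foxc2 and Foxl1 share 30956 bp, which held most of the acetylated bases of both. Thus 5 of 7 mesenchymal members were higher and 2 lower with purmorphamine, where over all 13919 comparable loci 5417 were higher and 8088 lower. The median log2 ratio of the mesenchymal members was 0.54, against -0.07 over all of these loci. Foxq1 was the member with at least 2-fold less, with 550 bp with purmorphamine and 1750 bp in control cells (log2 ratio -1.10). In limb buds Foxq1, known from hair and stomach epithelium, had no H3K27ac, 2400 bp of H3K4me2 in each genotype and 4900 bp of H3K27me3. The H3K4me2 was nearer to the start of another gene in both genotypes, and 1 of the 3 H3K27me3 peaks was nearest to the Foxq1 start. In NIH3T3 cells all peaks of Foxq1 were nearer to the start of the gene A530084C06Rik than to its own. This call was lost with a 50 kb flank (-0.44), with 1000 bp added in place of 500 (-0.83), and without the flanks or with each peak given to its nearest start alone (0 in both).

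Among the members without a call, the lowest ratio was at Foxn1, the regulator of thymic epithelium, with 4100 bp with purmorphamine and 6250 bp in control cells (-0.55). Foxh1, a partner of Smad proteins, had 3350 and 2350 bp (0.43). The 11 widely expressed members compared had log2 ratios from -0.42 at Foxj3 to 0.34 at Foxk1 with a median of -0.08. Foxs1, with the widest acetylated domain of the forkhead loci at 10850 bp with purmorphamine, had 14200 and 10800 bp in all (0.38). Foxa1, Foxa2, Foxb1, Foxb2, Foxd3, Foxd4, Foxi1, Foxl2, Foxn4 and Foxp2 had no NIH3T3 peak.

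**Figure D4:**
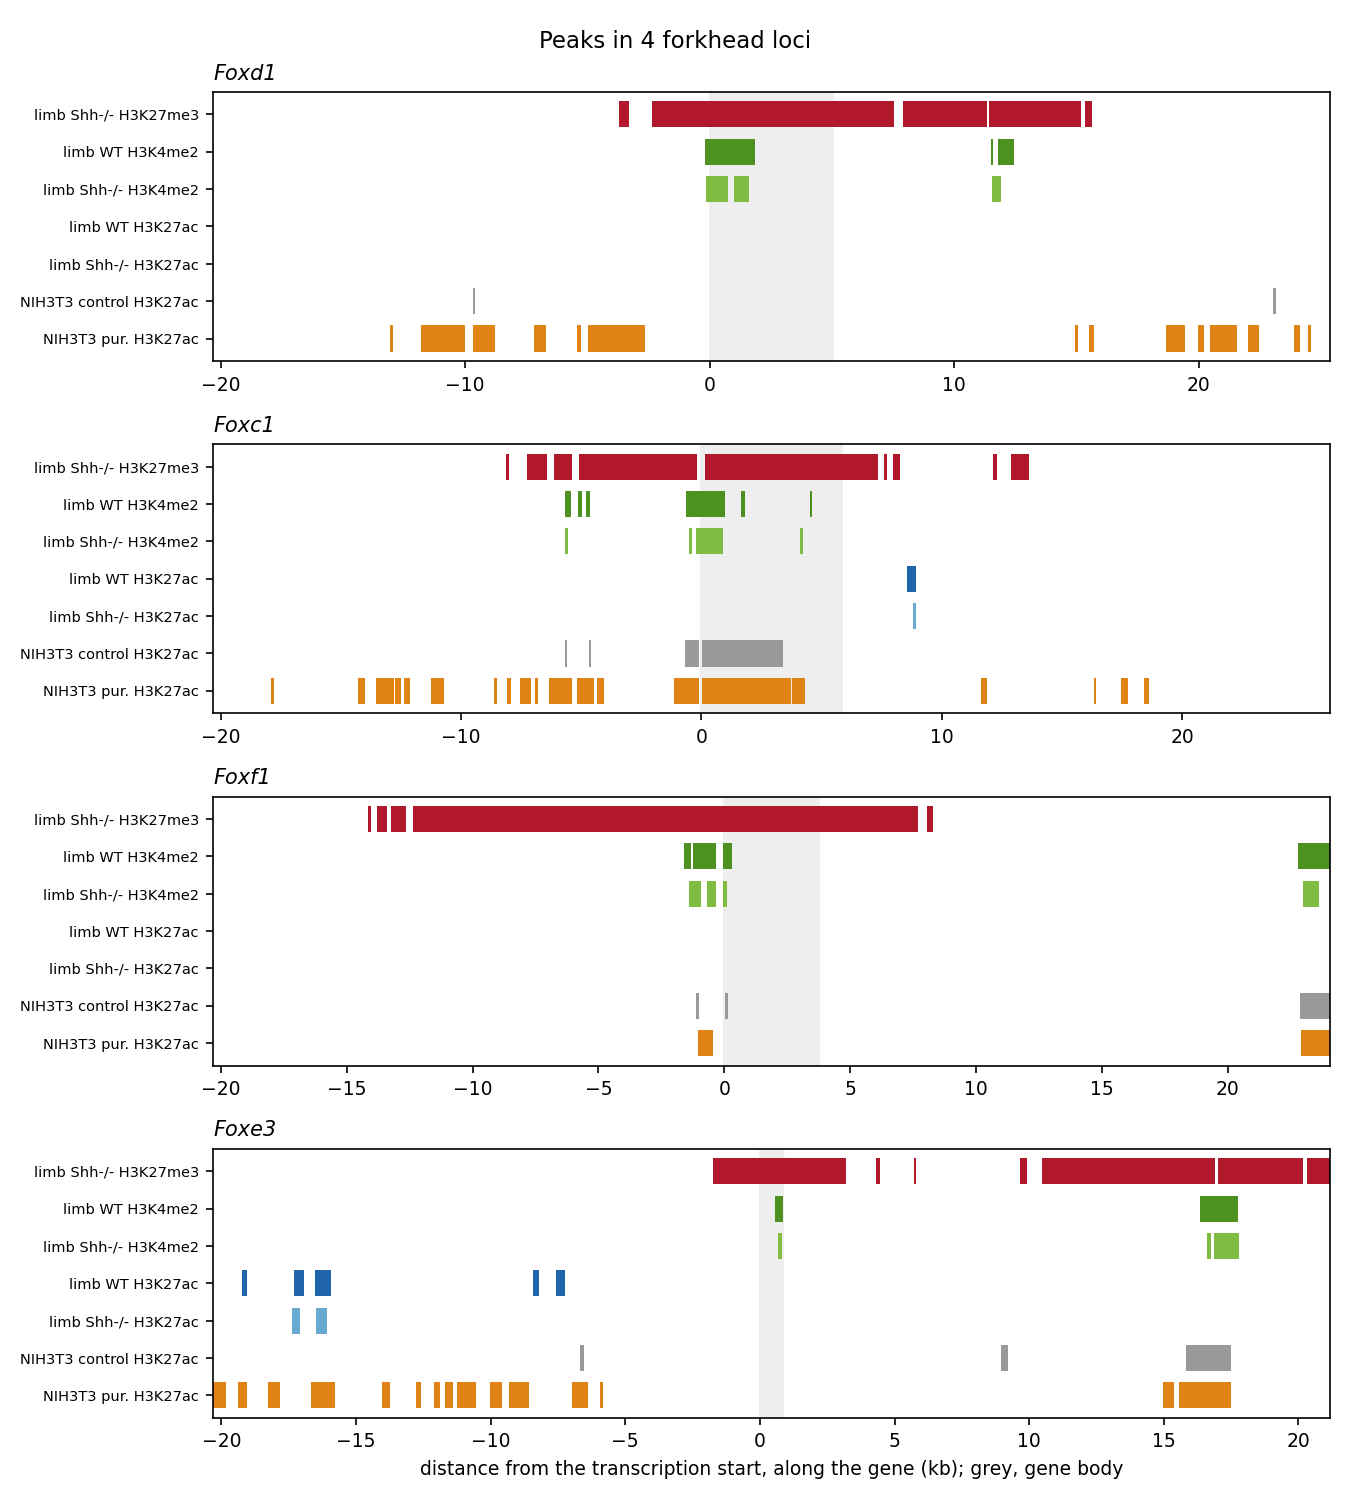
Peaks of the 7 lists along the loci of Foxd1, Foxc1, Foxf1 and Foxe3, each drawn to scale by distance from the transcription start in kb, with the gene body in grey and peaks clipped to the window. At Foxd1 the widest H3K27me3 peak of the limb (9900 bp) covers the gene, and the 14 purmorphamine peaks of NIH3T3 cells lie on either side of that peak. Some of them overlap narrower H3K27me3 peaks of the locus.

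Of 204 purmorphamine peaks at forkhead loci, 82 had no overlap with a control peak, or 40.2% (33.7 to 47.0), against 33.0% of purmorphamine peaks at all protein-coding loci. At the mesenchymal loci this was 37 of 59 peaks, or 62.7% (50.0 to 73.9), at loci of other tissues 25 of 47, or 53.2% (39.2 to 66.7), and at widely expressed loci 21 of 100, or 21.0% (14.2 to 30.0). These intervals treat peaks as independent, which neighbouring fragments of a domain are not. The 37 peaks came mostly from 2 loci, Foxc1 (16) and Foxd1 (13), and without Foxd1 the mesenchymal share was 53.3% and without Foxc1 53.8%. Only 5 purmorphamine peaks overlapped a mesenchymal gene body itself, and 20.0% of them were purmorphamine-only. Over all forkhead gene bodies this share was 22.4% of 85 peaks, against 32.0% at all protein-coding gene bodies. The forkhead share was thus above that of all loci with the flanks and below it without them. Of 186 control peaks at forkhead loci 29.0% (23.0 to 35.9) were control-only, against 38.2% at all loci.

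The mesenchymal members were then set against the 21 further members with an H3K27me3 peak in Shh-/- limb buds. This mark was not mapped in NIH3T3 cells, so the sorting below carries the limb marking over to them. The marking also differed in extent. Foxj2 and Foxk2 counted through 1 peak of 100 bp each, and 1 of the 6 marked widely expressed members had H3K27me3 at its start. Limb H3K27ac was found at 1 of 7 mesenchymal and 13 of 21 further marked loci, which were 7 of 15 of other tissues and 6 of 6 widely expressed ones, the latter with 100 to 1300 bp of H3K27me3. At Foxa3, Foxh1, Foxl2 and Foxn4, among those 7 of other tissues, no WT peak was nearest to the gene's own start. In control NIH3T3 cells 5 of 7 mesenchymal and 8 of 21 further marked starts were acetylated, 3 of 15 of other tissues and 5 of 6 widely expressed. The median purmorphamine over control log2 ratio was 0.54 in the 7 mesenchymal members, 0.06 in the 10 further marked members with at least 1000 bp (0.38 in 5 of other tissues and 0 in 5 widely expressed), and -0.22 in the 7 unmarked members with at least 1000 bp. The purmorphamine-only share of peaks was 62.7% at mesenchymal loci, 40.5% (30.6 to 51.2) at further marked loci and 19.0% (11.2 to 30.4) at unmarked loci. Among the further marked members, the 15 of other tissues had 23 purmorphamine-only peaks of 39, or 59.0% (43.4 to 72.9), of which 12 were at Foxe3. The 6 widely expressed ones had 11 of 45, or 24.4% (14.2 to 38.7). At the Hedgehog reference loci it was 17 of 20 peaks (95% interval of the share 64.0% to 94.8%). These 20 peaks were at Gli1 (11) and Ptch1 (9), and Hhip had no peak in either NIH3T3 list.

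The neighbourhood of several of these loci moved as well. Within 1 Mb on either side, with the locus left out, H3K27ac covered 387158 bp with purmorphamine and 119050 bp in control cells around Foxd1 (log2 ratio 1.70), 141100 and 40400 bp around Foxc1 (1.79), 135654 and 37550 bp around Foxf2 (1.84), 136600 and 41650 bp around Foxq1 (1.70), 125632 and 50700 bp around Foxd2 (1.30) and 121836 and 50650 bp around Foxe3 (1.26). Foxq1, Foxf2 and Foxc1 are neighbours on chromosome 13, Foxd1 lies far from them on the same chromosome, and Foxd2 and Foxe3 are neighbours on chromosome 4, so these are 3 regions. Surroundings with at least 2-fold more covered bp with purmorphamine were found at 1.18% of 20995 protein-coding loci, and the median log2 ratio over all 20995 was -0.10. The change at Foxc1, Foxf2 and Foxd2 was thus below that of their surroundings, at Foxd1 and Foxe3 it was above, and at Foxq1 it went the other way. Around the other mesenchymal members, Foxf1, Foxc2 and Foxl1 on chromosome 8, the surroundings had log2 ratios of 0.21 to 0.33. Of the reference loci, Gli1 changed alone (locus 2.24, surroundings -0.11), and Ptch1 changed with its surroundings (1.47 and 1.34). The part of the surroundings in the changes at Foxd1, Foxc1 and Foxe3 was not tested.

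**Figure D5:**
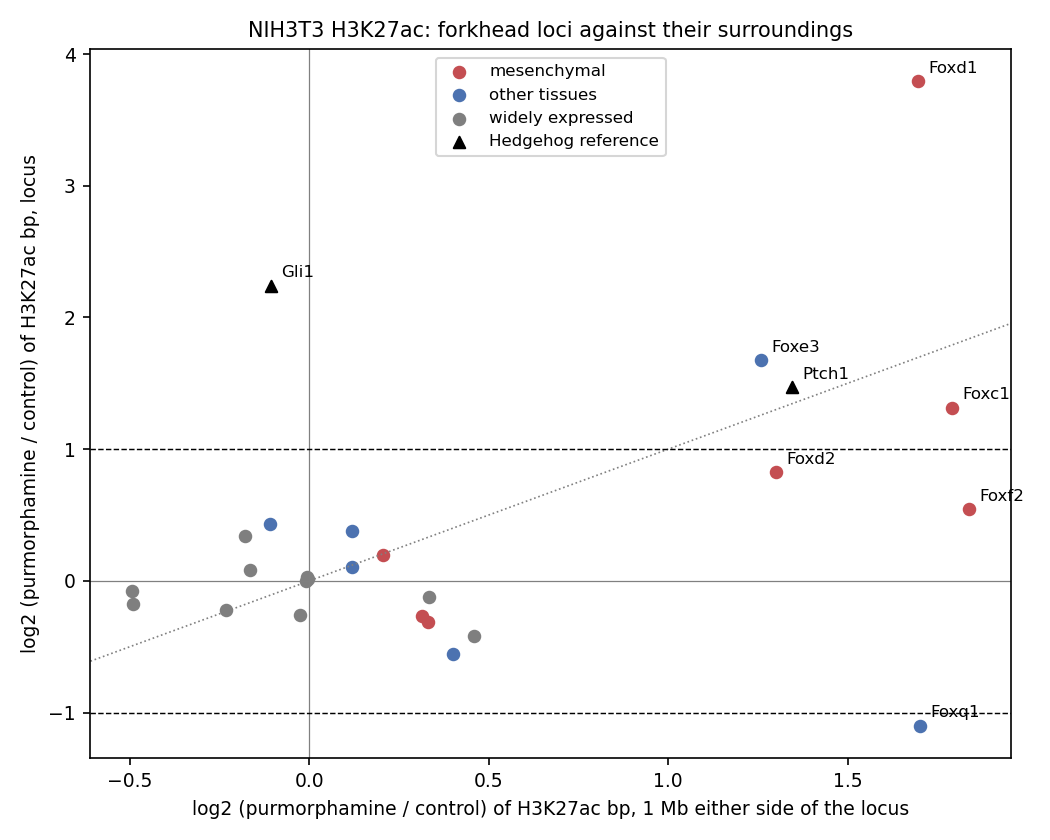
The log2 ratio of H3K27ac covered bp, purmorphamine over control NIH3T3 cells, at each forkhead or Hedgehog reference locus with at least 1000 bp in 1 condition (vertical) against the same ratio within 1 Mb on either side, the locus left out (horizontal). Dashed lines mark 2-fold and the dotted line equal change, and 6 forkhead loci lie between 1.26 and 1.84 on the horizontal axis, with Foxd1 and Foxe3 above the dotted line and Foxc1, Foxf2, Foxd2 and Foxq1 below it.

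Finally, the GLI consensus, the sequence bound by the transcription factors at the end of the Hedgehog pathway, was searched as the exact letters GACCACCCA on both strands of the GRCm38.p6 sequence. No match was found in the 204 purmorphamine or 186 control H3K27ac peaks at forkhead loci, where 0.725% and 0.592% of all peaks of these lists hold it, nor in the 135 WT H3K27ac peaks, where 0.401% do. The Shh-/- H3K27ac list had 1 such peak, with its match at -2997 bp from the start of Foxp2. Each H3K4me2 list also had 1, at Foxb2 in WT (0.746% of its forkhead peaks, against 0.62% of the whole list) and at the same Foxp2 match in Shh-/- (0.735% against 0.502%). In H3K27me3 peaks at forkhead loci there were 5 matches, at Foxa1, Foxb2, Foxd2, Foxf1 and Foxl2. These peaks are wide, and per covered Mb this was 19.9 matches against 10.6 in the whole list. None of the 20 matched forkhead promoters held the consensus, which was present in 0.196% of all matched promoters. The match at Foxf1 lies at -3551 bp from its start, within the Fendrr and Gm20388 genes but in none of their exons. That at Foxd2 lies 5598 bp downstream of its start and that at Foxa1 at -2756 bp, both in no annotated gene. As examples of the consensus within Polycomb domains near a start, these 3 are printed with 25 bases on either side, in the orientation of the consensus, with the match in capitals.
Foxf1 (chr8:121080806-121080864, minus strand): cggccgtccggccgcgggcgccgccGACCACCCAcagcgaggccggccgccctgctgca
Foxd2 (chr4:114903246-114903304, minus strand): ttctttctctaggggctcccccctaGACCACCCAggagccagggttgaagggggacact
Foxa1 (chr12:57549643-57549701, minus strand): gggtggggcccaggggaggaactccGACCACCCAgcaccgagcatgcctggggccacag

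A match of these letters is a description and does not show binding, and a locus without it may hold variants of the sequence that were not searched.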

How the data were processed

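ChIP-seq of H3K27ac, H3K4me2 and H3K27me3 was analysed from 7 peak lists. The authors aligned reads with Bowtie2 2.2.5 to mm10 and called peaks with CisGenome against input, with both replicates of a condition entered together, so no list belongs to a single replicate. The study's methods set a common minimum of reads per sample, and the reads of each library could not be taken from the lists. For each peak the authors deposited an FDR, which is a q-value of their peak caller, a score on which the rank is ordered, the maximal log2 ratio over input, and −log10 of the smallest Poisson p-value. They served here for ranking and filtering alone, and entered no model. Limma, named in the submitters' processing notes, was not used here.

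Only autosomal, X and Y peaks were kept, with coordinates as deposited, and all ends lay within the GRCm38 chromosomes. Loci were basic GENCODE vM21 protein-coding gene bodies with 20 kb on either side. Covered bp were clipped to the window, ratios were taken after adding 500 bp, and a change was called at 2-fold with at least 1000 bp in the higher list. A peak was shared when it overlapped the other list by at least 1 bp. Shares carry 95% Wilson intervals, which cover counting error only. Overlap functions were checked on simulated intervals. Foxc2, Foxf1 and Foxl1, and Foxd2 and Foxe3, have overlapping windows, and their peaks count at each locus but once in a share. Python 3.11.15, pandas 2.3.3, numpy 2.4.6 and scipy 1.17.1 were used.

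The members, the role lists and the rules were chosen with earlier results of these data known. Values in every list were given for the mesenchymal members, members called in H3K27ac and the 5 members with the most H3K27me3. Further members were named after their values were seen. Alternatives were no flank or 50 kb, FDR under 0.05, the better-ranked 50%, lists of equal size, other overlap rules, nearest start only, other added bp, joined peaks and a minimum of 1500 bp of H3K27me3. One reference locus is not reported here and was left out of all reference counts.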

Additional observations from a re-analysis of the deposited data

How the results depend on the processing

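No paired analysis was possible because each condition is 1 list called on pooled replicates. The FDR limit changed no result by more than its margin (the Wilson interval of a share, 1.5 times a count), and the count of loci with H3K27me3 ran from 22 to 29 of 36 over its 7 alternatives. The overlap rule moved most shares. When 50% of the peak had to overlap, WT-only and Shh-/- only H3K27ac shares were 63.0% and 43.4%, the WT-only H3K4me2 share 37.3%, and the purmorphamine-only and control-only shares 51.5% and 38.2%, and 76.3% at mesenchymal loci. When peaks up to 500 bp apart counted as shared, these were 37.8%, 15.1%, 14.2%, 28.4% and 14.0%, and the Shh-/- only H3K4me2 share was 12.5%. Without the flanks, the Shh-/- only H3K4me2 share was 30.6%, against 17.9% at all protein-coding gene bodies. The purmorphamine-only share was then 22.4%, with 20.0% at mesenchymal loci, against 32.0% at all protein-coding gene bodies. In this setting 1 locus (Foxk1) in place of 3 had at least 2-fold more H3K27ac with purmorphamine. Foxd1, Foxe3 and Foxq1 then had log2 ratios of 0 and Foxc1 of 0.28. Their changes in covered bp thus lay outside the gene bodies, at Foxc1 mostly so. Covered bp do not measure the height of a peak. The peak over the Foxc1 gene ranked 45 with purmorphamine and 5541 in control cells. The control-only share was 14.1% in the better-ranked 50%, in which Foxc1 had a log2 ratio of 0.98. Foxq1 fell under 2-fold with a 50 kb flank (-0.44), with 1000 bp added (-0.83) and with the nearest start alone (0). The count of loci with at least 2-fold more H3K27ac in WT than in Shh-/- limb buds, 0 as reported, was 1 with 50 kb flanks (Foxs1), 1 in the better-ranked 50% (Foxe3), 2 with 150 bp added (Foxs1 and Foxe3) and 2 with peaks within 1 kb joined (Foxs1 and Foxh1). With 50 kb flanks the median limb H3K27ac log2 ratio was 0.23 for mesenchymal and 0.22 for H3K27me3-marked members, in place of 0 when loci without peaks in both lists are counted. Leaving out the Foxd1, the Foxc1 or the Foxd2 and Foxe3 loci, chosen after seeing the data, kept the purmorphamine-only shares within their intervals.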

Other observations

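The paralogous pair Foxp1 and Foxp2, which act together in lung and brain development, differed between the systems. Foxp2 had 6650 bp of H3K27ac in WT and 6500 bp in Shh-/- limb buds and no peak in either NIH3T3 list. Foxp1 had 11450 and 6650 bp in the limb and 26150 and 28450 bp in purmorphamine and control cells, the most of any forkhead locus in NIH3T3 cells. Foxl2, a regulator of the ovary, had 14200 bp of H3K27me3 with 3000 bp of H3K4me2 in each genotype. Its window also held 800 bp of H3K27ac in WT and 1250 bp in Shh-/- limb buds. These H3K27ac peaks were all nearer to the start of another gene, and the closest lay 17512 bp (WT) and 17312 bp (Shh-/-) from the Foxl2 start. Foxe1, a thyroid regulator, had the best-ranked H3K27me3 peak of all members, 4th of 20830, with 11950 bp in all and no H3K27ac in the limb.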
